A study of Mus musculus with 6 samples.

Results

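Genes of the neural crest and of early glia, namely the transcription factors Foxd3, Tfap2a, Tfap2b and Sox10 and the receptors Erbb3, Ngfr and Ednrb, were followed in E9.5 mouse embryos, in tissue of the posterior trunk. They were chosen by name, and all 7 of the 7 listed genes had 1 probe each, among 34967 gene probes and 18697 named genes of the array. The piece directly caudal to the forelimb bud gave 3 Fkbp8 mutant samples, named a, b and c, and 3 wildtype samples, named d, e and f, with 1 CodeLink array, read in a single colour, for each sample. All embryos came from intercrosses of heterozygous carriers, the labels name neither the allele nor the strain, and the label of mutant a speaks of embryos and not of an embryo, which leaves pooling unsettled there. The title of the series names cell death and the dorsoventral pattern of the caudal neural tube, from whose dorsal edge the crest forms.

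Neural crest cells arise at the border between neural plate and surface ectoderm, leave the dorsal neural tube by an epithelial-to-mesenchymal transition and migrate through the trunk. Foxd3 and the AP-2 factors Tfap2a and Tfap2b belong to the early specifiers that are made before or at delamination. Sox10 follows in cells that leave, stays on in glia and melanoblasts, and is needed in the mouse for Erbb3, the receptor through which neuregulin reaches crest and Schwann cell precursors. Ednrb, the endothelin receptor of enteric and pigment cell precursors, and Ngfr, the neurotrophin receptor p75, mark crest cells on the move.

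Markers of posterior tissue were detected, and so were some of the markers listed as anterior. Hoxd10, Tbx6 and T were above background, by the flag of the scanner software, on all 6 arrays, and Otx2 of forebrain and Nkx2-5 of heart on 0 of 6. Of the same anterior list, Emx2, En1 and Myl7, a light chain of atrial muscle, were above background on all 6 as well, and Pax8 on 2 of 3 mutant and 3 of 3 wildtype arrays. The log2 intensity of Fkbp8 averaged 6.23 ± 0.10 in mutants and 10.66 ± 0.09 in wildtypes (SD, n = 3 each), and its probe exceeded background in 0 of 3 mutants (adjusted p = 1.18e-07). The share of gene probes above background ran from 57.6% in mutant c to 61.8% in wildtype f, and the median background-subtracted intensity was 51.4 to 64.4 in mutants and 62.3 to 63.7 in wildtypes. The Y-linked Eif2s3y exceeded background in 3 of 3 mutants and 0 of 3 wildtypes, and Xist did so in 0 of 3 mutants and 3 of 3 wildtypes, so genotype and sex cannot be told apart for any gene below. In bulk tissue, fewer cells of a type and less RNA per cell cannot be told apart either.

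Sox10, Tfap2b and Erbb3 had lower values in every mutant array than in any wildtype array, Foxd3 was lower in 8 of 9 pairs of a mutant with a wildtype array, and Tfap2a, Ednrb and Ngfr overlapped between the groups. None of the 7 passed an adjusted p of 0.05 in either direction. The test was limma on log2 intensities and p-values were adjusted by Benjamini-Hochberg over the 21688 probes tested, of which 0.12% passed (0.0553% lower and 0.0646% higher in mutants). The smallest adjusted p of the 7 was 0.181, for Sox10. At an unadjusted p under 0.05, 3 of the 7 were lower and 0 higher, against 5.81% of all tested probes lower and 6.43% higher. The groups did not overlap, with mutants lower, for 3 of the 7 and for 8.56% of all tested probes (19.7% in either direction). The 7 genes were proposed with earlier results of these arrays known, so these counts describe them and carry no further weight.

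**Figure D1:**
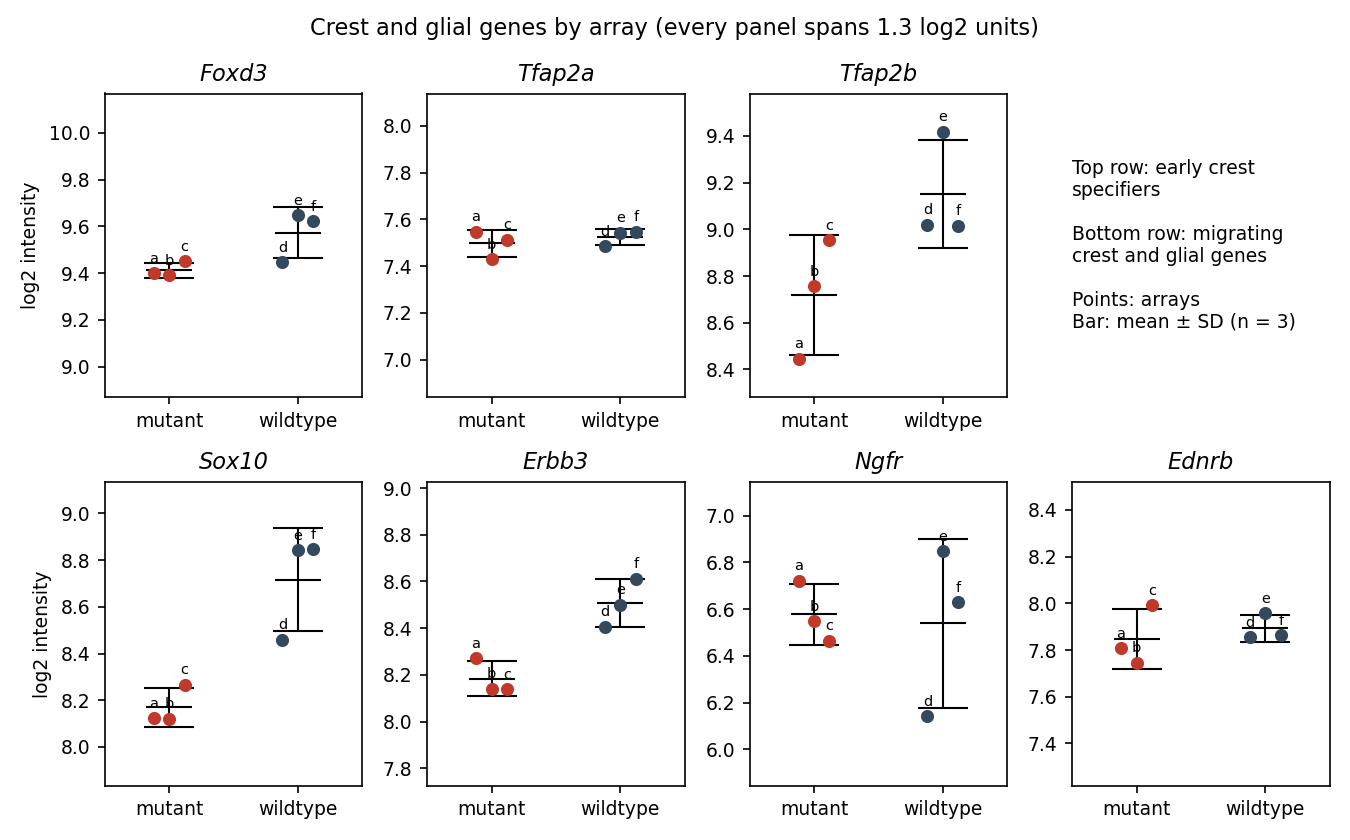
Log2 intensity (y axis) of each gene in 3 mutant arrays (red, left) and 3 wildtype arrays (dark blue, right), lettered by replicate, with the mean and SD of each group. Each panel spans the same height, and the groups stand apart for Tfap2b, Sox10 and Erbb3.

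All 3 early specifiers had lower mutant means, and none passed the test. The promoters of Foxd3 and Tfap2b are shown because these 2 had the larger differences of the 3, a choice made after their values were seen. The windows run from 250 bases before to 50 after the annotated start (RefSeq, GRCm38.p6, plus strand) at chr4:99656049-99656348 for Foxd3 and chr1:19211804-19212103 for Tfap2b. Capitals mark matches on either strand to the E-box CACGTG, the SOX core ACAAT or the AP-2 motif GCCNNNGGC.
Foxd3: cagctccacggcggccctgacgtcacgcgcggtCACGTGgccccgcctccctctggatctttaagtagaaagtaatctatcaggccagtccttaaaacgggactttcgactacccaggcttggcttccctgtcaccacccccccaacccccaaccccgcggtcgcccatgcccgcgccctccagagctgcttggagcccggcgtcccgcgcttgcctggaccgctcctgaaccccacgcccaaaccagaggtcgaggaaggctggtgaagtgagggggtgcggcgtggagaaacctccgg
Tfap2b: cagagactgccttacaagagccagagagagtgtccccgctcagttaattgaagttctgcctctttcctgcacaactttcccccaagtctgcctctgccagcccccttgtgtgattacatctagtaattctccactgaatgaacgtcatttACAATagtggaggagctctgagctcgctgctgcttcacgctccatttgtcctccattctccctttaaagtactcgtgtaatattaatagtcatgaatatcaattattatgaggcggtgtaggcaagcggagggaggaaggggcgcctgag
Foxd3 held 1 match, to the E-box, and Tfap2b held 1, to the SOX core. Of the 32851 promoter windows of that length in the table, 7.15% held CACGTG, 31.0% held ACAAT and 16.6% held GCCNNNGGC. The table held windows for 5 of the 7 genes. Besides these windows, Ednrb had 1 match to GCCNNNGGC, and Ngfr and both windows of Tfap2a had 0 matches to any of the 3 motifs.

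Foxd3, a forkhead repressor that keeps crest cells multipotent, had log2 intensities of 9.40, 9.39 and 9.45 in mutants a, b and c, against 9.45, 9.65 and 9.62 in wildtypes d, e and f. The mutants lay within 0.06 of each other on this scale, and the overlap came from wildtype d, the lowest wildtype, which lay 0.0027 under mutant c. The fold change of Foxd3 was -0.16 on the log2 scale, with SE 0.08 and adjusted p = 0.467, and p was 0.2 when the 6 values were permuted exactly (two-sided). Its 95% interval in limma placed the mutant level between 78.8% and 102% of wildtype.

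Tfap2b, an AP-2 factor of crest, dorsal neural tube and, later, kidney and sympathetic neurons, had log2 intensities of 8.45, 8.76 and 8.95 in mutants a, b and c. In wildtypes d, e and f they were 9.02, 9.42 and 9.01. Mutant c and the lower wildtypes, d and f, were close together, whereas mutant a and wildtype e stood at the extremes. Its log2 fold change came to -0.43 (SE 0.15, adjusted p = 0.326), a mutant level of 74.1% of wildtype with a 95% interval of 58.3% to 94.1%. Tfap2b had the widest spread among mutants of the 7 genes (SD 0.26, n = 3), and its log2 fold change was -0.30 without mutant a and also -0.30 without wildtype e.

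Tfap2a is made in premigratory crest and in surface ectoderm, and its loss in the mouse leaves the neural tube and face open. Its log2 intensities were 7.55, 7.43 and 7.51 in mutants a, b and c, against 7.49, 7.54 and 7.55 in wildtypes d, e and f. The values of both groups were interleaved. The log2 fold change was -0.03 (SE 0.07, adjusted p = 0.90), and the 95% interval of the mutant level ran from 87.4% to 110% of wildtype, so a difference within these bounds could not be resolved with 3 arrays a group.

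Of the other AP-2 genes, Tfap2c, which is shared by surface ectoderm and early crest, averaged 6.55 ± 0.12 in mutants and 7.33 ± 0.51 in wildtypes (log2 intensity, SD, n = 3 each). It exceeded background in 1 of 3 mutants and 3 of 3 wildtypes, and its log2 fold change was -0.78 (SE 0.22, adjusted p = 0.264). Tfap2e was above background on 0 of 6 arrays and was not tested.

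Sox10 gave the lowest log2 fold change of the 7. The background-subtracted intensity of its probe (spot mean minus background median) was 225, 233 and 204 in mutants a, b and c, against 306, 411 and 414 in wildtypes d, e and f. The probe was 4.93 to 6.24 times as bright as its local background in mutants and 7.0 to 8.81 times in wildtypes. After normalization its log2 intensities were 8.12, 8.12 and 8.27 in mutants a, b and c, against 8.46, 8.84 and 8.85 in wildtypes d, e and f. The mutants stayed close together, while among wildtypes d was well below e and f and nearer to mutant c than to either of them.

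The log2 fold change of Sox10 was -0.55 (SE 0.12, adjusted p = 0.181, lower in 9 of 9 pairs), and the mutant level was 68.5% of wildtype with a 95% interval of 57.1% to 82.2%. The exact two-sided permutation test gave p = 0.1, the smallest that 3 against 3 allows. Of all tested probes, 0.89% had a lower log2 fold change, and Sox10 stood at rank 146 by p. The array file describes the probe by an older name, Sox-M, and its symbol came from the platform annotation.

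Erbb3, which binds neuregulin and signals through its partner Erbb2, had log2 intensities of 8.27, 8.14 and 8.14 in mutants a, b and c. The wildtypes d, e and f had 8.41, 8.50 and 8.61. The groups were separated by the gap between mutant a and wildtype d, the nearest pair, of 0.13 on the log2 scale. For Erbb3 the log2 fold change was -0.32 (SE 0.08, adjusted p = 0.239), a mutant level of 80.0% of wildtype with a 95% interval of 70.0% to 91.4%. The array file describes this probe only as a cDNA clone, and the link to Erbb3 rests on the platform annotation. Erbb2 differed little, with a log2 difference of 0.03 (SE 0.10, adjusted p = 0.913, 2 usable mutant arrays), and Nrg1, which encodes the ligand, had -0.09 (SE 0.10, adjusted p = 0.749).

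Ednrb had log2 intensities of 7.81, 7.75 and 7.99 in mutants a, b and c, against 7.86, 7.96 and 7.86 in wildtypes d, e and f. Mutant c was the highest and mutant b the lowest of the 6, so the wildtypes lay inside the range of the mutants. For Ednrb the log2 fold change was -0.04 (SE 0.09, adjusted p = 0.869), with a 95% interval for the mutant level of 84.5% to 111% of wildtype. Edn3, the ligand that acts on this receptor in enteric and pigment cell precursors, averaged 6.97 ± 0.25 in mutants and 7.28 ± 0.0068 in wildtypes (log2 intensity, SD, n = 3 each), with a log2 difference of -0.31 (SE 0.12, adjusted p = 0.357). Ednra, the endothelin receptor of crest mesenchyme and smooth muscle, was higher in each mutant than in each wildtype, by 0.17 on average (SE 0.09, adjusted p = 0.477). Ece1, the protease that matures endothelins, had -0.01 (SE 0.08, adjusted p = 0.964).

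Ngfr was close to background. It exceeded background on 2 of 3 arrays of either group, not in mutant c or wildtype d, and its spot was only 1.49 to 1.95 times as bright as the local background in mutants and 1.23 to 2.16 times in wildtypes. Its log2 intensities were 6.72, 6.55 and 6.46 in mutants a, b and c, against 6.14, 6.85 and 6.63 in wildtypes d, e and f, and the mutants lay inside the wide range of the wildtypes. The log2 fold change was 0.04 (SE 0.17, adjusted p = 0.945), and the 95% interval of the mutant level, 79.0% to 133% of wildtype, leaves room for differences in both directions. The sign of this value turned with the scaling, to -0.0057 with median centring and -0.0027 with cyclic loess, while background subtraction with a floor of 1 gave 0.27 and starting from the deposited values gave 0.29. Among its partners, the neurotrophin receptor Ntrk2 had 0.16 (SE 0.11) and Ntrk3 0.01 (SE 0.10) on the log2 scale, the co-receptor Sort1 had 0.07 (SE 0.07), and the ligand gene Bdnf was above background on 1 of 6 arrays.

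**Figure D2:**
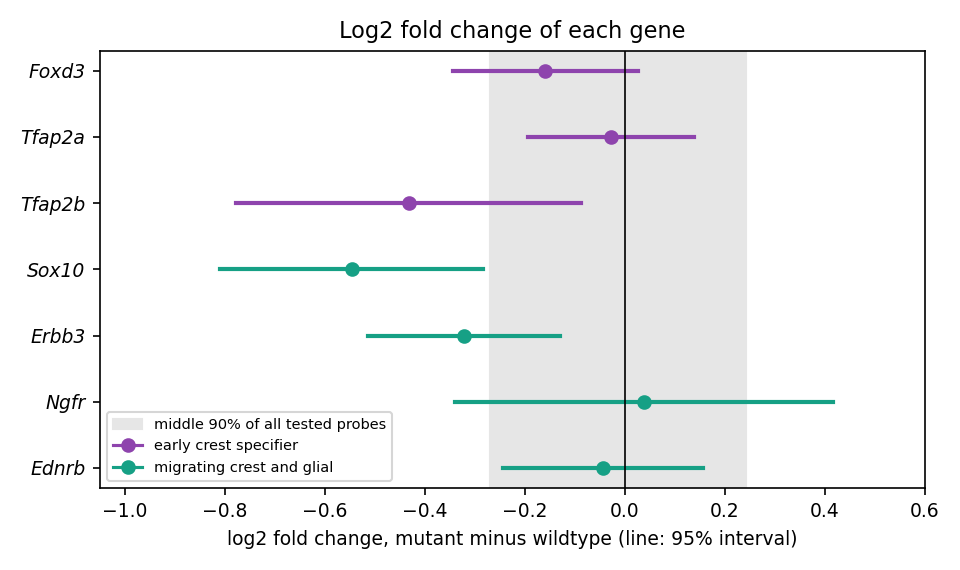
Log2 fold change of mutant minus wildtype (x axis) for each gene, with the 95% interval from limma as a line, for early specifiers (purple) and for migrating crest and glial genes (green). The grey band holds the middle 90% of all tested probes, from -0.27 to 0.24, and Tfap2b, Sox10 and Erbb3 lie left of it.

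Early specifiers and migrating crest or glial genes did not separate as groups. The median log2 fold change was -0.18 over Sox10, Erbb3, Ngfr and Ednrb and -0.16 over Foxd3, Tfap2a and Tfap2b, beside 0.01 over all tested probes. In both groups the values were mixed, with Tfap2b and Tfap2a as the extremes of the early genes and Sox10 and Ngfr as those of the later ones. All 3 early genes and 3 of the 4 later ones had negative values, as had 47.6% of all tested probes. Without Ngfr, which a requirement of signal above background on all 6 arrays leaves out, the median of the later genes was -0.32.

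The genes also differed in which arrays carried their spread. Relative to the wildtype mean of each gene, Sox10 was at -0.59, -0.60 and -0.45 in mutants a, b and c, and Erbb3 at -0.23, -0.37 and -0.37. Mutant a was thus the highest mutant for Erbb3 and the lowest for Tfap2b, at -0.71. Wildtype d was the lowest wildtype for Foxd3, Tfap2a, Sox10, Erbb3, Ngfr and Ednrb, and for Tfap2b it was level with wildtype f. Mutant a and wildtype d carry sample names in their headers that open on a shared number that nothing explains. Between those arrays alone the difference, mutant a minus wildtype d, was -0.34 for Sox10, -0.13 for Erbb3, -0.57 for Tfap2b and -0.05 for Foxd3 on the log2 scale.

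**Figure D3:**
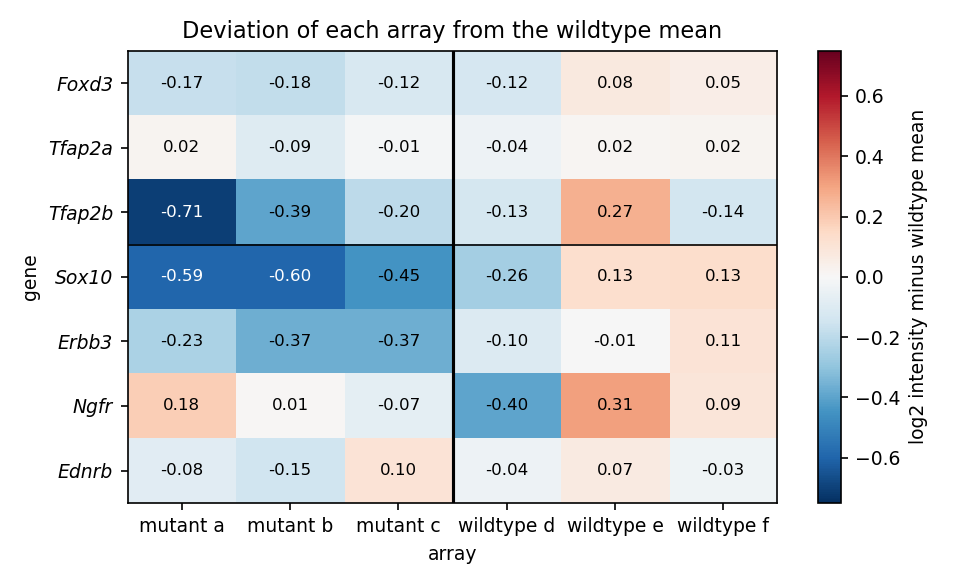
Log2 intensity minus the wildtype mean of the gene, by array (columns, mutants left of the line) and gene (rows, early specifiers above the line), with blue for lower and red for higher values. Foxd3, Tfap2b, Sox10 and Erbb3 are negative in all mutants and in wildtype d, and Ngfr is lowest in wildtype d. Tfap2b is also negative in wildtype f (-0.14) and Erbb3 slightly so in wildtype e (-0.005).

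The probes whose course over the 6 arrays was most like that of Sox10 belonged to Prdm8, Nipa1, A030005K14Rik, Ctbp2 and Bst2. Likeness was measured as the root mean square difference between log2 values centred on each probe's own mean, among 14689 other probes with 1 gene symbol and a value on all 6 arrays. For these 5 it was 0.079 to 0.118, against a spread of Sox10 about its own mean of 0.306. Among them Bst2 was the one past the threshold (adjusted p = 0.0371), and it exceeded background in 0 of 3 mutants. Of the other crest genes, Erbb3 was at rank 81 (0.161), Tfap2b at rank 184 (0.184) and Foxd3 at rank 413 (0.207) of likeness to Sox10. For Erbb3 the nearest were Fbxl6, Ruvbl1, Ankrd27, Stag1 and Gsc (0.039 to 0.045, against a spread of Erbb3 of 0.177), with log2 fold changes of -0.37 to -0.26 and adjusted p of 0.220 to 0.315 in limma. Any probe that is lower in mutants by a like amount comes out as similar by this measure, which has only 6 points.

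Other genes of the crest lineage were read from lists chosen with earlier results known. Among specifiers and border genes, 9 of 14 were bright enough to be tested. In limma 0 of these 9 passed in either direction, 6 had negative values, and 4 were lower at an unadjusted p under 0.05, against 47.6% and 5.81% of all tested probes. The median was -0.15, and it was -0.10 with median centring and -0.07 with no filter on dim probes, which adds 3 genes. Sox9, a specifier that acts before Sox10, had a log2 difference of -0.24 (SE 0.09, adjusted p = 0.356), the border gene Msx1 -0.30 (SE 0.12, adjusted p = 0.363) and Ets1 -0.27 (SE 0.11, adjusted p = 0.384). Pax3, a border and dorsal neural tube gene, had -0.15 (SE 0.07, adjusted p = 0.451), and Snai1, a driver of delamination, 0.00 (SE 0.08, adjusted p = 0.986). Snai2 was above background on 2 of 6 arrays and Sox8 and Pax7 on 0 of 6, so these 3 were not tested.

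Among genes of migrating crest, 10 of 11 were tested, 0 passed, and 9 had negative values with a median of -0.10. Of all tested probes, 47.6% had negative values. Epha4, an ephrin receptor, had a log2 difference of -0.47 (SE 0.18, adjusted p = 0.356), the chemokine receptor Cxcr4 -0.21 (SE 0.17, adjusted p = 0.654) and Rhob -0.15 (SE 0.12, adjusted p = 0.644). Ednra, the 1 gene of the 10 with a positive value, had 0.17 (SE 0.09, adjusted p = 0.477) and was higher in each mutant than in each wildtype. With the mean of the erythroid markers as a covariate, 5 of the 10 were negative and the median was -0.003. Without mutant a the median was -0.04 with 7 of 10 negative, and without mutant b it was -0.05 with 8 of 10 negative. Among glial and Schwann cell precursor genes, 8 of 12 were tested, 0 passed, and 3 had negative values with a median of 0.04. That median turned to -0.06 with the erythroid covariate (4 of 8 negative) and to -0.009 without wildtype f, and it was 0.01 without mutant c, 0.06 without wildtype e and 0.10 without mutant b. Fabp7, which neural progenitors make too, had 0.21 (SE 0.09, adjusted p = 0.396), and the adhesion molecule L1cam 0.13 (SE 0.10, adjusted p = 0.595). Gfra3, a receptor for artemin, had -0.11 (SE 0.09, adjusted p = 0.671). The glial markers S100b and Egr2 were above background on 0 and 1 of 6 arrays.

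Genes of crest-derived neurons lay mostly on the other side of 0, with 10 of 12 tested members positive, a median of 0.10 and 0 past the threshold. The other 2 were negative, as were 47.6% of all tested probes. Without mutant b, 5 of the 12 were negative and the median was 0.11. The sensory neurogenesis factors Neurog2 and Neurog1, made in the neural tube as well, stood at 0.33 (SE 0.11, adjusted p = 0.291) and 0.31 (SE 0.12, adjusted p = 0.357) on the log2 scale. Isl1 of sensory and motor neurons had -0.26 (SE 0.11, adjusted p = 0.393). Of the melanoblast genes 4 of 6 were tested and 0 passed. Kit, which germ and blood cells make as well, had 0.56 (SE 0.10, adjusted p = 0.136) at the probe used and -0.08 (SE 0.08) at its other probe. Mitf had 0.27 (SE 0.08, adjusted p = 0.275), Pmel -0.31 (SE 0.09, adjusted p = 0.264) and Dct 0.00 (SE 0.12, adjusted p = 0.994). Of the ligands, co-receptors and processing enzymes of the 7 genes, 14 of 19 were tested and 0 passed, with a median of 0.05. The smallest p belonged to Maged1, whose product binds p75, at 0.33 (SE 0.08, adjusted p = 0.219), and Sorcs2, a co-receptor of p75, had 0.14 (SE 0.08, adjusted p = 0.522).

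**Figure D4:**
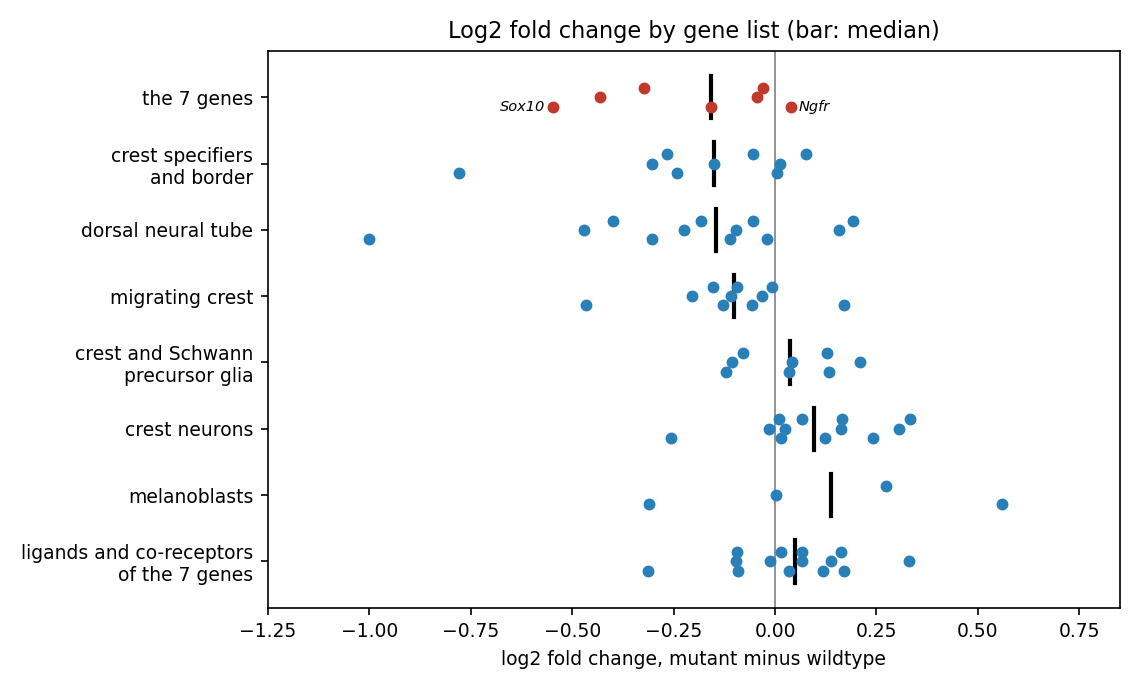
Log2 fold change of mutant minus wildtype (x axis) of each tested gene (points) in the 7 genes (red) and in the crest lists (blue), with the median as a bar and the lowest and highest of the 7 named. The medians of specifiers, dorsal neural tube and migrating crest are between -0.15 and -0.10, and those of glia, neurons, melanoblasts and ligands between 0.04 and 0.14. The lists share some genes, so their medians are not independent. Msx1 and Msx2 are in specifiers and dorsal neural tube. The ligand list shares Ednra with migrating crest, Erbb2 with glia, and Ntrk2 and Ntrk3 with neurons.

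Tissues that also make some of the 7 genes were read from their markers. Of these, 0 of 12 dorsal neural tube, 0 of 14 surface ectoderm and 1 of 5 pan-neural genes passed the test, beside 0.12% of all tested probes. The mean log2 intensity of 12 tested dorsal neural tube genes was 9.05 to 9.07 in mutants and 9.23 to 9.31 in wildtypes, without overlap. Zic1 was lowest among them (-1.0, SE 0.14, adjusted p = 0.0505), then Wnt3a (-0.47, SE 0.08, adjusted p = 0.136) and Olig3 (-0.40, SE 0.09, adjusted p = 0.183). Of the 12 dorsal genes, 10 had negative values with a median of -0.15, against 47.6% negative among all tested probes. Zic4 was among the 10 at the probe used (-0.10, SE 0.08, adjusted p = 0.651). Its other probe was higher in each mutant than in each wildtype (0.25, SE 0.09, adjusted p = 0.348). Bmp6 was higher in each mutant than in each wildtype at the probe used (0.19, SE 0.08, adjusted p = 0.393). At its other probe the groups overlapped (0.03, SE 0.10, adjusted p = 0.924). The mean of 14 surface ectoderm genes was 8.02 to 8.13 in mutants and 8.21 to 8.27 in wildtypes, but their median log2 fold change was only -0.05, with 11 of 14 negative, and -0.01 with 8 of 14 negative under the erythroid covariate. The median was -0.01 without mutant b and -0.10 without mutant c. The lowest value among them was that of Esrp1 (-1.06, SE 0.58, adjusted p = 0.494), which had 8.67, 8.64 and 6.10 in mutants a, b and c, against 8.89, 8.89 and 8.81 in wildtypes d, e and f, and Tfap2c came next. After Tfap2c, the smallest p among them, at the probes used, belonged to Cldn6 (-0.27, SE 0.11, adjusted p = 0.361), Trp63 (0.20, SE 0.10, adjusted p = 0.446) and Krt14 (-0.21, SE 0.11, adjusted p = 0.471). Dlx5 had 0.02 (SE 0.07, adjusted p = 0.930) at the probe used. At its dimmer probe Dlx5 was lower in each mutant than in each wildtype (-0.29, SE 0.10, adjusted p = 0.305). The 5 pan-neural genes were at 8.63 to 8.84 in mutants and 9.09 to 9.12 in wildtypes, and Pax6 (-1.15, SE 0.09, adjusted p = 0.00287) was the one that passed. Of the 5, 4 had negative values with a median of -0.22, and the median was -0.12 under the erythroid covariate. Among all tested probes 47.6% were negative. Sox2 was lower in each mutant than in each wildtype (-0.50, SE 0.19, adjusted p = 0.355), and Sox3 had -0.22 (SE 0.12, adjusted p = 0.493). Nes, the 1 with a positive value, was higher in each mutant than in each wildtype (0.16, SE 0.07, adjusted p = 0.424). The part of these tissues in the crest values was not tested. Paraxial and tailbud genes (9.76 to 9.90 in mutants, 9.79 to 9.81 in wildtypes) and endothelial genes (9.07 to 9.13 in mutants, 9.03 to 9.19 in wildtypes) overlapped.

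Erythroid markers ran the other way and overlapped, with a mean over 12 genes of 10.84 to 11.00 in mutants and 10.50 to 10.89 in wildtypes. Over 13 tested genes the median log2 fold change was 0.23, with 1 negative. It was 0.09 with 4 negative without wildtype f, and 0.39 with 2 negative without wildtype d. Without mutant a it was 0.24, with 4 negative. In limma 0 of the 13 passed in either direction, and their log2 fold changes ran from -0.18 to 0.49. The groups did not overlap for 2 of the 13, with mutants higher, against 11.2% of all tested probes. These were Alas2, the heme synthesis enzyme of red cells, at 0.41 (SE 0.12, adjusted p = 0.266) and Rhag at 0.22 (SE 0.07, adjusted p = 0.304). With the mean of the 12 erythroid genes as a covariate the log2 fold change was -0.38 (SE 0.13, adjusted p = 0.669) for Sox10 and -0.25 (SE 0.11, adjusted p = 0.708) for Erbb3. It was -0.41 (SE 0.21, adjusted p = 0.733) for Tfap2b and -0.09 (SE 0.10, adjusted p = 0.868) for Foxd3. All 4 values kept their sign and were nearer to 0 than without the covariate.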

How the data were processed

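Total RNA was profiled on 1-colour CodeLink arrays. The authors deposited, per the file headers, spot mean and background median as intensity from CodeLink Expression Analysis, and a normalized intensity that the deposited series table repeats exactly (largest difference 0). Here background was corrected with normexp (offset 50), control spots were dropped, as were values of contaminated, irregular or masked spots, and the log2 scale was quantile-normalized. Testing needed signal above background on 3 of 6 arrays or more and 2 usable spots in either group, and was done with limma 3.58.1 in R 4.3.3 (lmFit and eBayes, two-sided). The offset shrinks changes of dim genes. Symbols came from the platform annotation, updated through Entrez IDs with the RefSeq table of GRCm38.p6 (21442 probes), or otherwise from the array file or a RefSeq accession. For genes with several probes the brightest was used. Nothing states that samples were separate litters, so a p-value reflects only how far these 6 samples scatter, and their number limits precision. The gene members and lists were chosen with earlier results of these data known. Named genes are the 7, Fkbp8, fixed ligands, receptors and relatives, up to 4 genes per list by smallest p, and the 5 nearest to Sox10 and to Erbb3. Further genes below background (Pax7, S100b, Egr2, Bdnf, Otx2, Nkx2-5) and Bmp6, Zic4, Dlx5 and Esrp1 were picked after their values were seen. Some genes under the rule are not reported here. Alternatives covered normalization, background, filter, variance model, weights, flags, sex-linked genes, an erythroid covariate and each array left out. The fit was tested on simulated data.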

Additional observations from a re-analysis of the deposited data

How the results depend on the processing

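None of the 7 genes passed under any of the 19 alternatives run, and Sox10, Erbb3, Tfap2b and Foxd3 had negative log2 fold changes in all 18 that gave a value. Sox10 ranged from -0.67 (without wildtype d) to -0.38 (erythroid covariate), with adjusted p of 0.112 to 0.669. Erbb3 ranged from -0.39 to -0.25, Tfap2b from -0.55 to -0.30 and Foxd3 from -0.22 to -0.09. With 1 array left out, Tfap2a ranged from -0.053 to 0.0047, Ednrb from -0.12 to 0.0079 and Ngfr from -0.16 to 0.19. Over all alternatives Ngfr reached 0.29, with the deposited table. The sign turned for Tfap2a (0.0047) and Ednrb (0.0079) without mutant b, and for Ngfr with median centring (-0.0057), cyclic loess (-0.0027), without mutant a (-0.03) and without wildtype d (-0.16). The cause was not tested. The count of 26 called probes was 16 with median centring, 13 with background subtraction and a floor of 1, 15 with the deposited table, 16 with the filter on all 6 arrays, 14 without X and Y genes and 9 with the erythroid covariate. Leaving out 1 array gave 11 (mutant b, wildtype d or wildtype f) to 37 (mutant a), with 14 without wildtype e. No paired analysis was possible because mutants and wildtypes share no replicate letter and only 1 pair, mutant a and wildtype d, shares a number in the headers. Among the lists, the melanoblast median turned to -0.04 without the filter, which adds 2 dim genes, and was 0.22 without mutant a and 0.09 without mutant b. That of crest neurons was 0.17 with a floor of 1 and 0.15 with the deposited table. It was 0.07 with no background correction or with no filter, and 0.06 without wildtype d. The median of ligands and co-receptors was 0.02 without wildtype d, 0.08 without mutant b and 0.09 without wildtype e. Each array was on its own slide, so no slide block was run, and each of the 7 genes had 1 probe, so averaging probes was not run. Ngfr was the gene whose signal over background limits what can be said.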
